A study of Mus musculus with 4 samples.

Results

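Glutathione peroxidases and peroxiredoxins are enzymes that reduce hydrogen peroxide and lipid peroxides. The set described here was given by name and held 10 genes: Gpx1, Gpx2, Gpx3, Gpx4, Gpx6, Prdx1, Prdx2, Prdx3, Prdx5 and Prdx6. Of these, 8 were matched to a probe set of a single gene, out of 19938 genes so matched, and Prdx5 and Prdx6 were not analysed here. Where a gene had several such probe sets, the brightest was used, by its mean over all 4 arrays. A gene was tested if the highest of its 4 values reached the brightness threshold of 6.52, the median of all values in the table. All 8 measured genes did so, as did 12471 genes in all, which are the genes tested below.

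RNA came from the mucosa over the nasal septum and turbinates of mice aged 8 weeks, whose strain the labels give as C56BL/6. The 4 groups were wild-type mice (Duox2+/+) given PBS, wild-type mice given flagellin, Duox2-/- mice given PBS and Duox2-/- mice given flagellin, each with 1 array. Flagellin, the protein of bacterial flagella, was used at 5 ug/ml, with 25 ul placed in each nostril, and the exposure lasted 4 h. The sources used here do not say how the Duox2 allele was made or whether RNA of several mice was pooled on an array. With 1 array a group, a difference between 2 arrays has no replicate check, and any other difference between the mice of 2 arrays cannot be told apart from genotype or treatment.

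Glutathione peroxidases take their reducing power from glutathione, which glutathione reductase regenerates with NADPH. Several of them carry selenocysteine at the active site and so depend on selenium. Peroxiredoxins use a cysteine instead and are mostly regenerated by thioredoxin and thioredoxin reductase, again with NADPH. Duox2 is an oxidase of epithelial cells whose product is hydrogen peroxide, the molecule these enzymes remove, and the nasal mucosa is one of the tissues where such an oxidase meets inhaled bacteria.

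Duox2, the targeted gene, had log2 values of 4.95 (PBS) and 5.12 (flagellin) in wild type, against 5.23 (PBS) and 5.50 (flagellin) under the label Duox2-/-. It was under the brightness threshold in all 4 arrays and was not lower under the knockout label, so the arrays are called "labelled Duox2-/-" throughout. No source used here says whether its probe set covers the part that was altered, so this value may check nothing. The tissue label was borne out by bright markers of olfactory and respiratory mucosa: Omp of olfactory neurons lay between 11.85 and 12.16, Cyp2g1 of sustentacular cells between 12.08 and 12.35 and Reg3g of respiratory secretory cells between 12.24 and 12.64 over the 4 arrays. The interquartile range of all values was 2.79 (PBS) and 2.73 (flagellin) in wild type and 2.54 and 2.43 in the arrays labelled Duox2-/-. Over the genes tested, the median difference of the arrays labelled Duox2-/- from wild type was -0.041 under PBS and -0.12 after flagellin.

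The clearest pattern among the 8 enzymes was by genotype label, and it belonged above all to Gpx2. Gpx2, a selenium-dependent peroxidase of epithelial cells best known from the gut, was 2.23-fold lower in the PBS array labelled Duox2-/- than in the wild-type PBS array, and 2.28-fold lower in the flagellin pair. Gpx1, Gpx4, Prdx1 and Prdx3 were also lower in both pairs, by smaller amounts, while Gpx6 hardly differed. None of the 8 differed by 1.5-fold between flagellin and PBS in either genotype, as was so for most genes. Of all genes tested, 2.36% were that much higher with flagellin and 0.569% lower in wild type. Under the label Duox2-/- these shares were 0.994% and 3.13%. In bulk tissue, fewer cells of a type and less RNA per cell cannot be told apart.

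**Figure D1:**
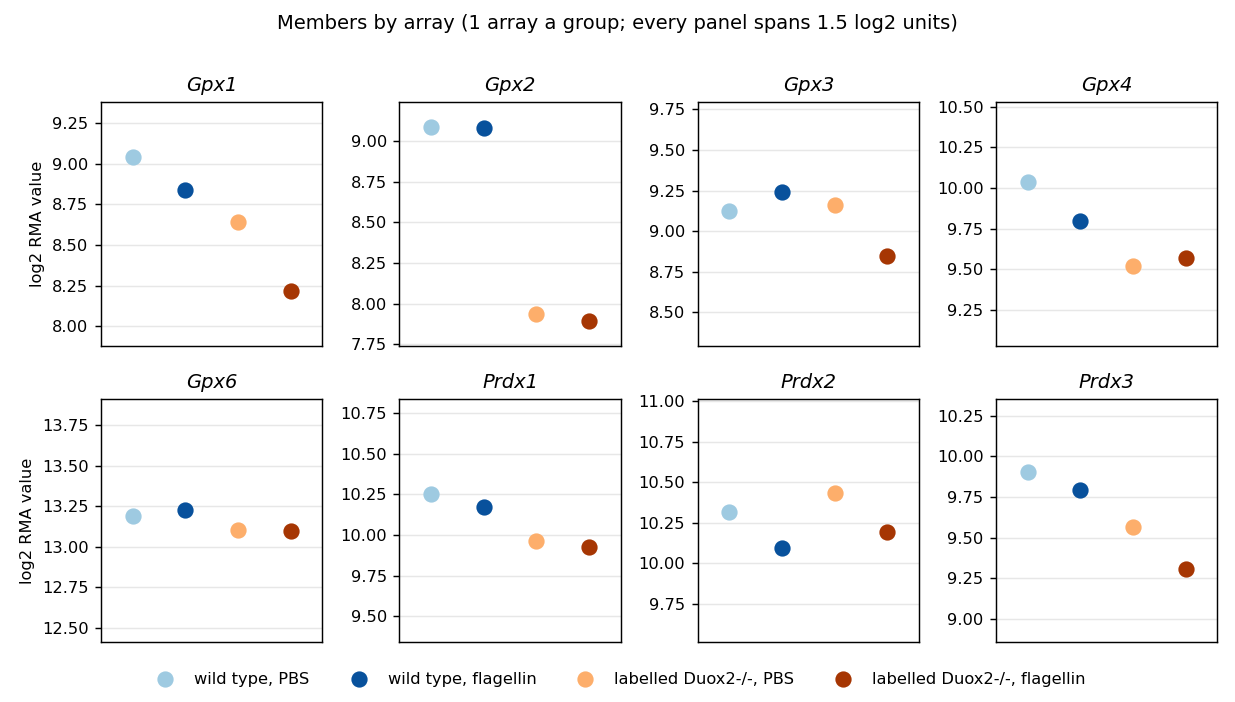
Log2 RMA value (y axis) of each of the 8 measured genes in the 4 arrays, with 1 point per array and no replicates. Each panel spans the same 1.5 log2 units around its gene. Gpx2 is near 9.09 in both wild-type arrays and at 7.94 and 7.89 in the arrays labelled Duox2-/-, while the 4 values of Gpx6 span 0.12.

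The glutathione peroxidases of the cell interior were described first. In wild type Gpx2 had log2 values of 9.09 with PBS and 9.08 with flagellin, and under the label Duox2-/- it had 7.94 with PBS and 7.89 with flagellin. Both wild-type arrays were high and both arrays labelled Duox2-/- low, with a gap far wider than the spacing within either genotype. The log2 difference between the genotypes was -1.15 under PBS and -1.19 after flagellin, and of all genes tested only 0.184% and 0.962% had a lower difference in the same pair of arrays.

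Gpx1, the most widespread selenium-dependent peroxidase of cytosol and mitochondria, had log2 values of 9.04 and 8.84 in wild type with PBS and flagellin and of 8.64 and 8.21 in the arrays labelled Duox2-/-. Its values were ordered by genotype label first and by treatment second. The genotype difference was -0.40 under PBS and -0.62 after flagellin, the latter 1.54-fold lower. Gpx4, which reduces lipid peroxides within membranes and protects cells from ferroptosis, had values of 10.04 and 9.80 in wild type and of 9.52 and 9.57 in the arrays labelled Duox2-/-. The wild-type PBS array was the highest, and the genotype difference was -0.52 under PBS and -0.23 after flagellin.

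The secreted and the olfactory member behaved otherwise. Gpx3, the glutathione peroxidase of plasma, had values of 9.13 and 9.24 in wild type and of 9.16 and 8.85 in the arrays labelled Duox2-/-, so that the flagellin array labelled Duox2-/- alone was low. Its genotype difference was 0.035 under PBS and -0.39 after flagellin. Gpx6, a relative of Gpx3 that is made in olfactory mucosa and in the mouse carries cysteine in place of selenocysteine, had values of 13.19 and 13.22 in wild type and of 13.10 in both arrays labelled Duox2-/-. Its genotype differences were -0.085 under PBS and -0.12 after flagellin, well inside the percentiles 5 and 95 of all genes, -0.43 to 0.46 and -0.65 to 0.56.

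Among the peroxiredoxins, Prdx3, the mitochondrial form, had log2 values of 9.90 and 9.79 in wild type and of 9.57 and 9.31 in the arrays labelled Duox2-/-. Like those of Gpx1, its values were ordered by genotype label and then by treatment, with differences of -0.34 under PBS and -0.48 after flagellin. Prdx1, an abundant cytosolic form, had values of 10.25 and 10.17 in wild type and of 9.96 and 9.93 in the arrays labelled Duox2-/-. Its differences were -0.29 under PBS and -0.24 after flagellin. Prdx2, the cytosolic form that is abundant in red cells, went the other way, with values of 10.32 and 10.09 in wild type and of 10.44 and 10.19 in the arrays labelled Duox2-/-. The differences of Prdx2 were 0.12 under PBS and 0.099 after flagellin.

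For 3 of the genes the choice of probe set bears on these values. Prdx1, Prdx2 and Gpx4 each had another probe set of the same gene. Probe set numbers tend to run by chromosome, since 94.3% of neighbouring single-gene probe sets had genes on the same chromosome in RefSeq GRCm38.p6. Whether they also follow the order of genes along a chromosome was not counted. The numbers of the probe sets used for Prdx1, Prdx2 and Gpx4 fall between those of Gcsam and Dppa4, Pam and Rnf152, and Hace1 and Ascc3, which do not flank these genes, while those of the other probe sets fall between Ccdc17 and Ccdc163, Rtbdn and Hook2, and Arhgap45 and Stk11, which do. Signal from near-identical copies of these genes cannot be told apart here, so their values are uncertain. For Prdx2 the 2 probe sets disagreed. The flanked one had values of 8.24 and 8.05 in wild type and of 7.88 and 7.85 in the arrays labelled Duox2-/-, so its genotype differences were -0.37 and -0.20, against 0.12 and 0.099 above. For Prdx1 the flanked probe set gave -0.19 and -0.30, and for Gpx4 -0.44 and -0.23, of the same sign as those used. With the flanked probe sets 7 of the 8 genes were below 0 under PBS, all but Gpx3, and 8 of 8 after flagellin.

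**Figure D2:**
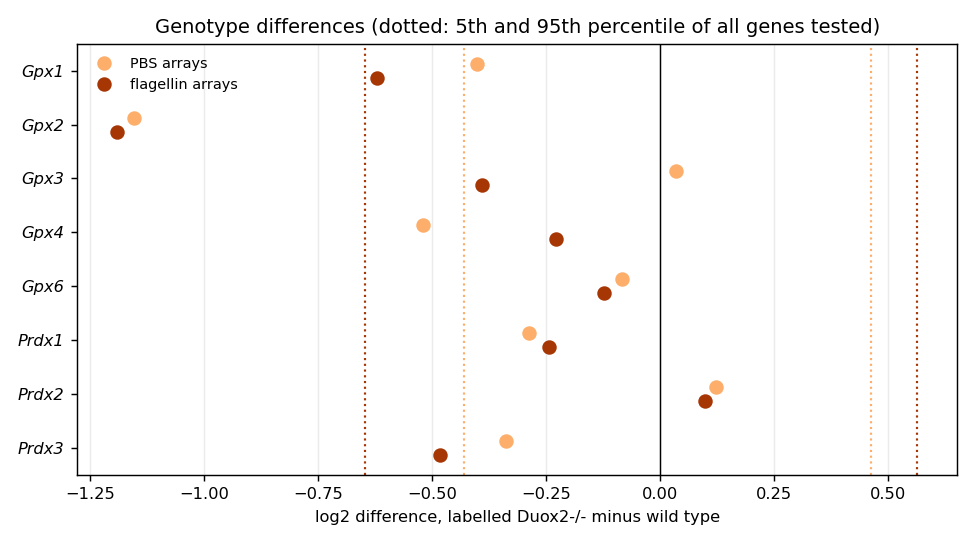
Log2 difference, labelled Duox2-/- minus wild type (x axis), of each gene in the PBS arrays and in the flagellin arrays, each from 1 array against 1. Dotted lines mark the percentiles 5 and 95 of all genes tested. Gpx2 lies at -1.15 and -1.19, beyond the lower lines in both pairs, and Gpx4 at -0.52 beyond it under PBS.

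Counted at a size of 1.5-fold, 1 of the 8 genes, Gpx2, was lower in the PBS array labelled Duox2-/-, against 2.0% of all genes tested, and none was higher, against 3.12%. After flagellin 2 of 8, Gpx2 and Gpx1, were lower, against 6.54% of all genes, and none was higher, against 4.57%. Below 0 were 6 of 8 under PBS (57.7% of all genes tested) and 7 of 8 after flagellin (66.8%). The median over the 8 was -0.31 under PBS, with all genes tested at -0.041, and -0.32 after flagellin, with all genes at -0.12. The 1711 genes tested with a mean log2 value of at least 9 had medians of -0.048 and -0.18. The means of Gpx2 and Gpx1 were under 9, so that bright set leaves both out. Cyclic loess, which removes shifts that depend on brightness, moved the median of all genes after flagellin from -0.12 to -0.019, and relative to all genes the median of the 8 was then -0.25 under PBS and -0.14 after flagellin, against -0.27 and -0.19 in the deposited values.

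An additive model of all 4 arrays asked whether a gene had a genotype shift common to both treatments. It was fitted with limma to the 12471 genes, with flagellin as the other term. Of the 8 enzymes 1 fell in the arrays labelled Duox2-/- at an adjusted p of at most 0.05 (1.98% of all genes tested fell) and none rose (2.39% of all rose). Among all genes that passed, 54.7% rose, against 33.2% after median centring. Gpx2 fell by 1.17 on the log2 scale (SE 0.128, adjusted p = 0.00653), lower in 2 of 2 pairs, and only 36 of the 12471 genes had a lower shift. The call on Gpx2 was lost after cyclic loess, where the shift was -1.05 (limma adjusted p = 0.0584), and with flagellin left out of the model, where the adjusted p was 0.114 and no gene of the table passed. Over the 10 settings run its shift lay between -1.24 and -1.05 and its adjusted p between 1.9e-04 and 0.114. Gpx2 had a single probe set, so only the other scalings could change its shift. The filters and model settings leave a shift as it is. The same held for Gpx1, Gpx3, Gpx6 and Prdx3, which also had a single probe set.

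The other 7 missed the threshold in this fit. Gpx1 had a shift of -0.51 (SE 0.133, limma adjusted p = 0.0660), and it passed in 3 of 10 settings, with adjusted p between 0.0324 and 0.210. Prdx3 was at -0.41 (adjusted p = 0.106), Gpx4 at -0.37 (0.148), Prdx1 at -0.27 (0.258), Gpx3 at -0.18 (0.509), Gpx6 at -0.10 (0.667) and Prdx2 at 0.11 (0.645), none of which passed in any of the 10 settings. With its flanked probe set Prdx2 was at -0.29 instead (limma adjusted p = 0.236). The residual of this model is 1 degree of freedom, the difference between the responses, so its error is borrowed largely from all genes and its p-values do not measure the spread between animals. An exact permutation of 2 arrays against 2 cannot give a two-sided p under 0.333.

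**Figure D3:**
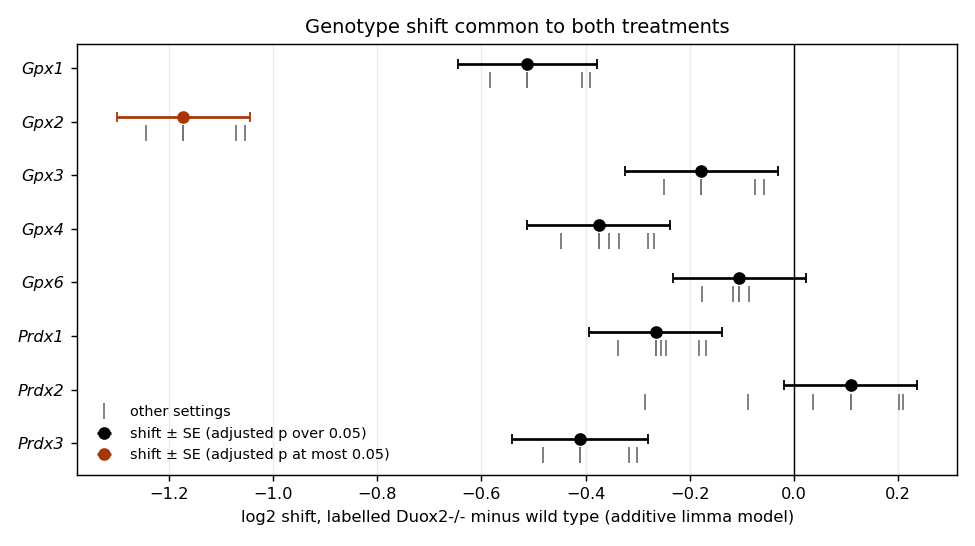
Log2 genotype shift common to both treatments (x axis) of the 8 genes in the additive limma model, with 2 arrays of each genotype. Points and bars give the shift ± SE, brown where the adjusted p was at most 0.05, and ticks give the shift in the other 9 settings. Ticks coincide where a setting could not change the shift. Gpx2 stands at -1.17, with ticks from -1.24 to -1.05, and only Prdx2 has ticks on both sides of 0.

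Markers of several cell types differed by the same label, in both directions. Most of all genes tested had a genotype shift below 0, with a median of -0.087. The list for basal and squamous epithelium (Krt5, Krt14, Krt15, Trp63, Krt1, Krt10, Krt4, Krt13, Dsg3 and Lor), of which 10 of 10 genes were matched and tested, had a median genotype shift of -1.33, with 10 of 10 below 0. In limma 6 of the 10 fell, Krt5 by 1.66 (SE 0.253, adjusted p = 0.0178), but after cyclic loess none of the 6 passed, with adjusted p between 0.0713 and 0.110. The summed linear level of the list was 3003 (PBS) and 4053 (flagellin) in wild type, and 1747 (PBS) and 1075 (flagellin) under the label Duox2-/-. Over the same pairs of arrays, flagellin minus PBS, Gpx2 differed by a log2 of -0.0064 in wild type and of -0.044 under the label Duox2-/-. Ciliated cell markers had a median shift of -0.26, with 11 of 11 below 0 and none past the test, and summed levels of 4088, 3492, 3369 and 2852 in the same order of arrays. Respiratory secretory cell markers had a median shift of -0.36, with 8 of 8 tested below 0 and none past the test, and summed levels of 30259, 29389, 25686 and 22757. Olfactory neuron markers had a median of 0.036, with 3 of 12 below 0. The median was -0.52 for markers of monocytes and macrophages, with 9 of 10 below 0 and 1 that fell, Lyz2 (limma adjusted p = 0.0285, or 0.121 after cyclic loess, 0.0578 after quantile normalization and 0.207 with flagellin left out), and summed levels of 1962, 2492, 1576 and 1527. Gland markers had a median shift of only 0.067, with 4 of 12 below 0. Of these 12 markers 4 rose, although 1 of them, Dcpp1, missed the threshold after median centring (limma adjusted p = 0.0745), cyclic loess (0.129) and quantile normalization (0.0720). Among the 4 that rose was Bpifb9b, chosen here after its values were seen, whose log2 values were 6.26 and 8.76 in wild type and 12.83 and 12.94 in the arrays labelled Duox2-/-. Of 7 cartilage, bone and tooth markers tested 3 rose (Ambn, Amelx and Dspp) and 1 fell (Col10a1) in limma. After cyclic loess Col10a1 alone still passed (adjusted p = 0.0432). The summed level of that list was 1689 and 2274 in wild type against 4003 and 2495 under the label Duox2-/-. Skeletal muscle markers had no call in limma, but 10 of 10 were over 2-fold higher in the PBS array labelled Duox2-/- than in the wild-type PBS array. Their summed level was 415 (PBS) and 1285 (flagellin) in wild type, and 2761 (PBS) and 587 (flagellin) under the label Duox2-/-. The part of these cell types in the lower Gpx2, Gpx1 and Prdx3 was not tested. Beside Prdx2, red cell markers, of which 3 of 8 were matched, had summed levels of 174 in wild type with PBS and between 326 and 348 in the other 3 arrays, and their part in its values was not tested.

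The 4-array profile of Gpx2 spanned more than 1 log2 unit, and no other of the 8 did. Among 11675 other genes tested, without olfactory and vomeronasal receptors and predicted genes, the profiles nearest to it after centring on each gene's mean were those of Ifit3, Gabrp and Gbp3, at distances of 0.049, 0.165 and 0.229 log2 units over the 4 arrays. Ifit3, an interferon-induced gene, had values of 6.60, 6.54, 5.45 and 5.36 in wild type with PBS, wild type with flagellin and the PBS and flagellin arrays labelled Duox2-/-. Gabrp, a subunit gene of the GABA-A receptor, had 10.41, 10.51, 9.23 and 9.09 in that order. Gbp3, a guanylate-binding protein gene, had 6.999, 7.30, 6.09 and 6.002. All 3 had both wild-type arrays high and both others low, which follows from their choice as nearest to Gpx2 over the same 4 arrays. Ifit3 and Gbp3 reached the brightness threshold in the wild-type arrays only and were under it in both arrays labelled Duox2-/-. Nothing is drawn from the likeness.

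The stretches of DNA before the start sites of Gpx2, Gpx1 and Prdx1 are shown because Gpx2 and Gpx1 had the lowest genotype shifts and Prdx1 alone among these genes held the core of the antioxidant response element, which NRF2 binds with small Maf proteins. Each is the 250 bases before the start in RefSeq, build GRCm38.p6, written 5′ to 3′ along the gene, with matches to the motifs searched in capitals. Gpx2 lies on the minus strand at chr12:76795555-76795804, Gpx1 on the plus strand at chr9:108338830-108339079 and Prdx1 on the plus strand at chr4:116685349-116685598.
Gpx2: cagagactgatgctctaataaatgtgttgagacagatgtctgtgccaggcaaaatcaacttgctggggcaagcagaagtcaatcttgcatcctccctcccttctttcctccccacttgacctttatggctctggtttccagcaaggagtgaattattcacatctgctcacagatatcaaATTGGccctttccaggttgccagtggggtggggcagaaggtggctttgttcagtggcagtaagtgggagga
Gpx1: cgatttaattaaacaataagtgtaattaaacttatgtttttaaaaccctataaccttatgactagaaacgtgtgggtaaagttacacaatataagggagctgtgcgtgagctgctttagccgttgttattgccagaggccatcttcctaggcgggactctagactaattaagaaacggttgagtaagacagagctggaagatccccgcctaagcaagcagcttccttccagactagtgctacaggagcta
Prdx1: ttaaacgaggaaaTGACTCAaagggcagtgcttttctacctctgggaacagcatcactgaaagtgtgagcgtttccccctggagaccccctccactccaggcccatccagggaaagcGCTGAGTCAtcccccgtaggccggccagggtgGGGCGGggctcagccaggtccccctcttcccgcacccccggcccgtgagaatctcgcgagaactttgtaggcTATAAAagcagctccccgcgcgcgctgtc

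The motifs, searched on both strands, were TGACNNNGC for the antioxidant response element core, TGANTCA for AP-1, GGGCGG for the GC box, CCAAT and TATAAA, and an NF-kB site, given by name alone. The NF-kB site was searched as a single fixed sequence, so variants of it were not counted. A window was found for 9 of the 10 named genes, with 4 start sites for Gpx4. Prdx1 had the antioxidant core between 133 and 125 bases before its start, overlapping the nearer of its 2 AP-1 matches, and was the only 1 of the 9 with either motif. Of all 32851 such windows 10.2% held the antioxidant core, 6.75% the AP-1 letters, 32.7% the GC box, 33.8% CCAAT, 12.4% TATAAA and 0.140% the fixed NF-kB sequence, which none of the 9 held. Gpx2 held CCAAT between 71 and 67 bases before its start, as did Gpx3, Gpx4 and Gpx6 in their own windows, while Gpx1 held none of the 6 motifs.

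Flagellin against PBS asks which genes the bacterial protein shifts within 4 h. In wild type the 8 enzymes lay between -0.24 (Gpx4) and 0.11 (Gpx3). Gpx1 was at -0.21, Prdx2 at -0.22, Prdx3 at -0.11, Prdx1 at -0.083, Gpx2 at -0.0064 and Gpx6 at 0.037. None was 1.5-fold higher (2.36% of all genes tested) or lower (0.569%), and 6 of 8 were below 0 (50.4% of all). The median was -0.098, with all genes at -0.0018.

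In the arrays labelled Duox2-/- the 8 lay between -0.43 (Gpx1) and 0.049 (Gpx4). Gpx3 was at -0.31, Prdx3 at -0.26, Prdx2 at -0.25, Gpx2 at -0.044, Prdx1 at -0.038 and Gpx6 at -0.0019. None was 1.5-fold higher (0.994% of all genes tested) or lower (3.13%), and 7 of 8 were below 0 (62.2% of all), or 4 of 8 after cyclic loess or quantile normalization. The median was -0.14, with all genes at -0.070.

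**Figure D4:**
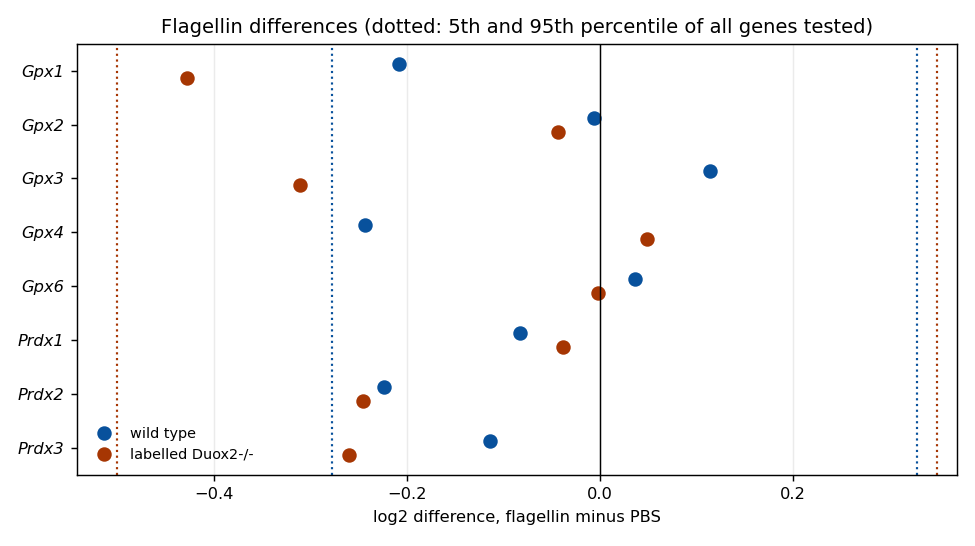
Log2 difference, flagellin minus PBS (x axis), of each gene, by genotype label, each from 1 array against 1. Dotted lines mark the percentiles 5 and 95 of all genes tested. All points lie between those lines for their own genotype, from -0.43 for Gpx1 to 0.11 for Gpx3.

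In the additive limma model none of the 8 rose with flagellin (0.241% of all genes tested rose) and none fell (0.0401% of all fell). The lowest adjusted p was 0.741, that of Gpx1, with a shift of -0.32 (SE 0.133), the only 1 of the 8 with an unadjusted p under 0.05. Gpx1 and Prdx2 had the lowest shifts, and both were below 0 in 2 of 2 genotypes. For Prdx2, whose shift was -0.23 (limma adjusted p = 0.858), the flanked probe set gave -0.19 in wild type and -0.024 under the label Duox2-/-. For Prdx1 it gave 0.066 in wild type, against -0.083 above.

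Subtracting the flagellin response under the label Duox2-/- from the wild-type response asks whether it depended on the genotype. This difference lay between -0.29 (Gpx4) and 0.42 (Gpx3), with Gpx1 at 0.22, Prdx3 at 0.15, Gpx6 at 0.039, Gpx2 at 0.037, Prdx2 at 0.022 and Prdx1 at -0.044. None of the 8 was past 1.5-fold above 0 (5.83% of all genes tested) or below it (1.26%), and 2 of 8 were below 0 (40.1% of all). This difference is the error term of the additive model and could not be tested.

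Many genes that supply these peroxidases with reducing power had genotype shifts below 0, although 1 of them passed the test. Most of all genes tested also had a shift below 0, with a median of -0.087, so counts below 0 alone do not set these lists apart. Of 13 genes tested for glutathione supply and recycling, 11 had a shift below 0, with a median of -0.23. Slc7a11, which imports cystine for glutathione synthesis, fell by 0.86 (SE 0.171, limma adjusted p = 0.0371), with log2 values of 7.80 and 8.81 in wild type and of 7.27 and 7.62 in the arrays labelled Duox2-/-. It missed the threshold after cyclic loess (adjusted p = 0.115), median centring (0.0570), quantile normalization (0.0525) and with flagellin left out (0.251). Oplah, which recycles oxoproline in the glutathione cycle, was at -0.60 (0.0608), Gclm and Gclc, the subunits of the enzyme that starts glutathione synthesis, at -0.58 (0.0534) and -0.43 (0.111), and none of these passed. Of 7 NADPH supply genes tested 7 were below 0, with a median of -0.42 and none past the limma test. Nnt, the proton-driven transhydrogenase of mitochondria, was at -0.60 (adjusted p = 0.0549), Pgd of the pentose phosphate pathway at -0.56 (0.0565), the malic enzyme gene Me1 at -0.46 (0.192) and the transketolase gene Tkt at -0.42 (0.0967).

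Catalase, which breaks down hydrogen peroxide in peroxisomes, had log2 values of 8.97 and 8.66 in wild type and of 8.41 and 7.87 in the arrays labelled Duox2-/-. Cat fell by 0.67 (SE 0.133, limma adjusted p = 0.0360), a call lost after cyclic loess (0.109), quantile normalization (0.0611) and with flagellin left out (0.194). It was the only 1 of the 4 genes tested in its list to pass, with Sod2, the superoxide dismutase of mitochondria, at -0.33 (0.183) and Sod1 of the cytosol at -0.22 (0.372). The thioredoxin and sulfiredoxin system, which regenerates peroxiredoxins, had a median of -0.069 over 11 genes tested, close to the -0.087 of all genes, with 7 below 0 and none past the test. Txnrd1, the cytosolic thioredoxin reductase, was at -0.34 (0.156), Sesn3 at -0.21 (0.356), Txn2 of mitochondria at -0.21 (0.364) and Sesn2 at 0.12 (0.648).

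Genes that make selenoproteins had a median shift of -0.11 over 10 tested, with 8 below 0 and none past the limma test. Lrp2, an uptake receptor for selenoprotein P, was at -0.36 (adjusted p = 0.150) and Secisbp2, which binds the selenocysteine insertion element, at -0.27 (0.263). Other selenoproteins had a median of -0.18 over 11 tested, with 9 below 0 and none past the test, led by Selenom at -0.45 (0.109) and Msrb1, a methionine sulfoxide reductase, at -0.40 (0.136). NRF2 regulators and marker targets were 6 of 6 below 0 with a median of -0.16 and none past the test. Hmox1, which degrades haem, was at -0.54 (0.0607), Osgin1 at -0.26 (0.273) and Nqo1, a quinone reductase, at -0.19 (0.469). Of the remaining relatives, Gpx8 of the endoplasmic reticulum was at -0.17 (0.522) and Prdx4, its peroxiredoxin neighbour in that compartment, at 0.057 (0.832), while Gpx5 and Gpx7 were under the brightness threshold in all 4 arrays.

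**Figure D5:**
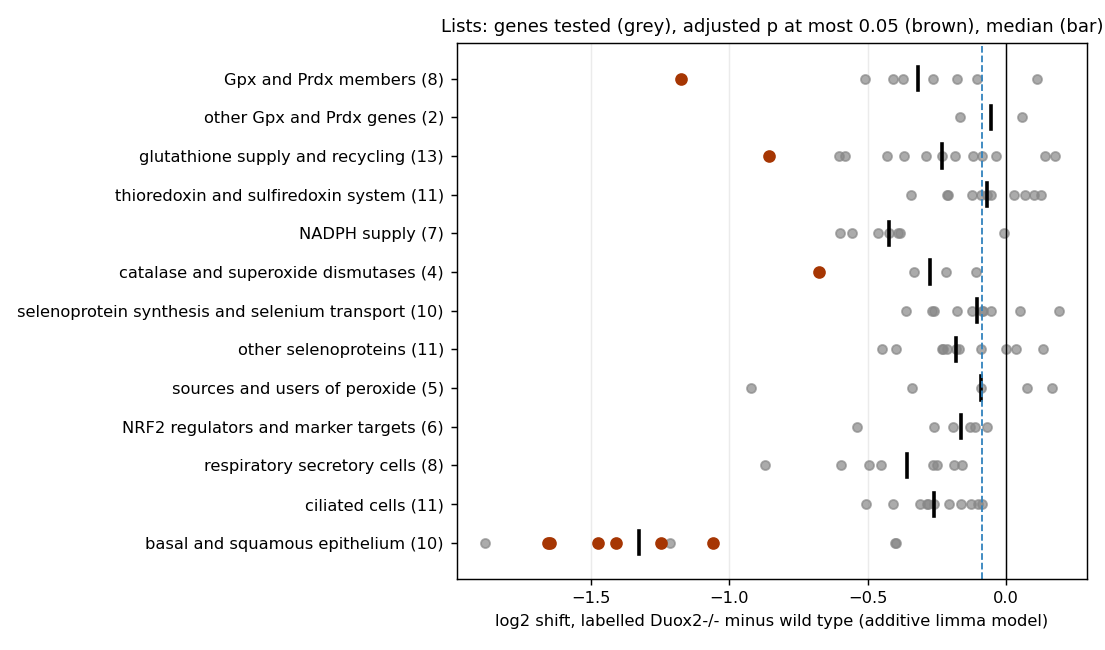
Log2 genotype shift common to both treatments (x axis) of every gene tested in the pathway lists and 3 of the marker lists, with the number tested in brackets. Brown points passed the additive limma test, bars are list medians and the dashed line is the median of all genes tested, -0.087. In the lists drawn, Gpx2, Slc7a11 and Cat are the brown points outside that for basal and squamous epithelium, whose median is -1.33.

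Of the genes that make or use peroxide, 5 of 14 matched were tested. The other 9 were under the brightness threshold in all 4 arrays, and of the 5 none passed the limma test for flagellin or for genotype. Cybb, the catalytic subunit of the phagocyte oxidase, had log2 values of 7.78 and 8.90 in wild type and of 7.53 and 7.31 in the arrays labelled Duox2-/-, and Mpo, the peroxidase of neutrophil granules, had 5.43 and 6.57 against 5.49 and 5.83. Both were highest in the wild-type flagellin array, the only array in which Mpo reached the brightness threshold. In the pathway lists as a whole no gene passed the limma test for flagellin, with adjusted p of 0.290 for Slc7a11 and 0.307 for Mpo as the lowest.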

How the data were processed

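The authors deposited log2 values, judged from their range. They were made with RMA in Affymetrix Expression Console 1.1, per the submitters' processing notes. RMA corrects background, is meant to bring the arrays to a common distribution and condenses the probes of a probe set to a single value. The interquartile ranges of the deposited values still differed, from 2.79 in wild type with PBS to 2.43 with flagellin under the label Duox2-/-. No genome build is named. The table held 35556 probe sets, of which 21789 were paired with 1 gene, 1621 with several and 12146 with no listed gene, and the last 2 kinds were not used. No further normalization was applied. Tests ran across all genes in R 4.3.3 with limma 3.58.1 and Benjamini-Hochberg adjustment at 0.05, where eBayes put the prior SD at 0.136 with 7.48 degrees of freedom. In simulated data of 12471 genes, the flagellin test called 46 of 100 genes shifted by a log2 of 0.5, 100 of 100 shifted by 1 and 6 of 12271 unshifted ones. Every simulated gene had independent noise of the prior SD, without a genotype shift, a difference between responses or a difference in spread between arrays. The counts therefore check the code and do not give the power or the false calls in the real arrays. Differences between single arrays were counted at 1.5-fold, without a p-value. Named genes were the 8 measured enzymes, Duox2, list genes past the test or up to 4 with the largest shift, up to 3 of the brightest markers of a cell type, and the 3 profiles nearest to Gpx2. Of 231 list memberships 213 were matched. Members and lists were chosen with earlier results of these data known. The alternatives were other scalings, probe set rules, filters, fold sizes and model settings. The number of arrays limits the precision.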

Additional observations from a re-analysis of the deposited data

Results flagged for a closer look

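The flagellin differences of 3 genes had opposite signs between wild type and the label Duox2-/-, from 1 array a group, and the difference between them was not tested. The wild-type response minus the other was 0.42 for Gpx3, -0.29 for Gpx4 and 0.039 for Gpx6. For Gpx4 the flanked probe set gave -0.21.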

How the results depend on the processing

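The 19 counts and medians of the 8 enzymes took 146 values under the alternatives, of which 13 had moved by more than 1.5 times or, for medians, by more than the robust SD over genes. The 146 include an alternative that left out members under the brightness threshold, which could change nothing because all 8 reached it. Under PBS, members lower in the arrays labelled Duox2-/- numbered 1, against 4 at a smaller size, a log2 difference of 0.32, and 2 after median centring. After flagellin they numbered 2, against 4 at that smaller size and 1 at 2-fold, after cyclic loess and after quantile normalization. At the smaller size 1 member was lower with flagellin in the arrays labelled Duox2-/-. For 1 member, Gpx3, the wild-type response minus the other passed that size at 0.42. Its responses were 0.11 in wild type and -0.31 under the label Duox2-/-. In the additive model 1 member fell by genotype label, against 0 after cyclic loess and with flagellin left out, and 2 without a brightness filter, with a filter at the 75th percentile and with a trended prior. Over all genes, 298 rose and 247 fell by genotype label (54.7% rose), against 62 and 125 after median centring (33.2%), 9 and 8 after cyclic loess, 147 and 135 after quantile normalization, 1402 and 477 without a filter (74.6%), 99 and 351 with the stricter filter, 313 and 608 with a trend (34.0%), and 0 and 0 with flagellin left out (limma, 2456 at an unadjusted p under 0.05). With flagellin 30 rose and 5 fell, against 7 and 0 after median centring, 36 and 2 after quantile normalization, 0 and 0 after cyclic loess (722 unadjusted), 52 and 8 without a filter, 30 and 16 with the stricter filter, 53 and 28 with a trend, and 0 and 0 with genotype left out (143 unadjusted). The cause of these changes was not tested. The flanked probe sets were an alternative chosen after seeing the data. No paired analysis was possible because each group has 1 array and the labels give no replicate numbers, and leaving out an array would empty its group. Without a background value per probe set, signal near background could not be judged.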
